A study of Mus musculus with 8 samples.

Results

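The genes described here are 6 genes of meiotic entry and of the oocyte, Stra8, Stag3, Figla, Brca2, Ddx4 and Dazl, chosen by name. On the MG_U74Av2 array, an oligonucleotide array, these 6 of the 8251 genes named on the array are read by 7 of its 12488 probe sets, each annotated to 1 gene, with Dazl read by a pair of them (called the first and the second, the first with the higher mean signal). The study profiled mouse embryonic gonads on 8 arrays, 1 for each combination of sex, genotype and stage, with no replicate. The mutant was a Wnt4 knock-out (KO), in which the gene of a secreted signal of the fetal ovary is disrupted, and the control was wild type (WT). Each genotype was sampled as female and male gonads, here called ovaries and testes, at embryonic day 14.5 (E14.5) and 12.5 (E12.5). The labels name neither the allele nor the strain, and they do not say how many embryos went into an array. Gonads had been frozen until the embryos were genotyped by PCR.

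Germ cells of both sexes arrive in the gonad as alike, dividing cells. In the ovary, retinoic acid switches on Stra8, and the germ cells enter the prophase of meiosis before birth. In the testis, the enzyme Cyp26b1 breaks retinoic acid down, and germ cells stop dividing and start meiosis only after birth. Stra8 is needed for meiotic entry, Stag3 is a cohesin subunit that holds meiotic chromosomes together, and Brca2 loads recombinases on broken DNA. Figla is an oocyte transcription factor that drives the genes of the egg coat, while Ddx4, an RNA helicase, and Dazl, an RNA-binding protein, mark germ cells of both sexes.

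RefSeq promoters, from 250 bases before to 50 bases after the start site on build GRCm38.p6, were found for 6 of the 6 genes. Those of Stra8, Figla, Ddx4 and Dazl are shown because these genes cover the switch into meiosis, the oocyte factor and the pair of general germ cell markers, and they rose together in the ovary. Capitals mark the letters AGGTCA, a half-site of retinoic acid receptors, CNCCTCAG, a motif described for Stra8 in mouse, and CACGTG, an E-box, searched on both strands.
Stra8, chr6:34920698-34920997, plus strand: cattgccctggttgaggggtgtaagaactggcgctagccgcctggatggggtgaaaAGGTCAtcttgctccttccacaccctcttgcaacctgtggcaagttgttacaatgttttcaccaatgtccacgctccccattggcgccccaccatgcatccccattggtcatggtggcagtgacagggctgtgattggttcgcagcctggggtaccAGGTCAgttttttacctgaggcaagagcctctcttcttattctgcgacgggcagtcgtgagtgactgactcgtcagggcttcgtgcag
Figla, chr6:86016941-86017240, plus strand: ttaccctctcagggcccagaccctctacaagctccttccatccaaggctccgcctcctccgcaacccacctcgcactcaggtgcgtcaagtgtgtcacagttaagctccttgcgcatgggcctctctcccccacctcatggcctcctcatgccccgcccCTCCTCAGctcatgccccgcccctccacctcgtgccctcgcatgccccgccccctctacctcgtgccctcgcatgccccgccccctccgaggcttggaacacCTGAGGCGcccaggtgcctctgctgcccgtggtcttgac
Ddx4, chr13:112652261-112652560, minus strand: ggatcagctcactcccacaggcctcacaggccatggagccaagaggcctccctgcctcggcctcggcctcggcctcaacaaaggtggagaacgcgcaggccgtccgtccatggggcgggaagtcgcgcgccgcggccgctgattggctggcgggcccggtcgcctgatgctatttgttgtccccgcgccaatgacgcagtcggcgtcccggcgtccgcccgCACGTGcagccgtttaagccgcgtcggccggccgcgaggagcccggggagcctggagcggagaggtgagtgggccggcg
Dazl, chr17:50293571-50293870, minus strand: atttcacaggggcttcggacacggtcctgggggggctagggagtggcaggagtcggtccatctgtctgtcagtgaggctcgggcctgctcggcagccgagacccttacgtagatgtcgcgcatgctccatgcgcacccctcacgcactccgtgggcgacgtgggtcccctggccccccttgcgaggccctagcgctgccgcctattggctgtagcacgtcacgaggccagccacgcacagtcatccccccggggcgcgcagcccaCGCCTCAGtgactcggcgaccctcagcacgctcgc
The Stra8 promoter held 2 matches to AGGTCA, starting at -194 and -38 from the start site, and no other of the 6 promoters held one. AGGTCA was found in 16.26% of all 32851 promoters. CNCCTCAG matched at -91 and 12 in Figla and at 16 in Dazl, and occurred in 7.94% of all promoters. CACGTG matched at -29 in Ddx4 and at -170 in Stag3, and occurred in 7.15%. The wider E-box CANNTG, which includes CACGTG, had 4 matches in Figla, 1 each in Stag3, Brca2, Ddx4 and Dazl and 0 in Stra8, and was present in 72.31% of all promoters. CpG pairs numbered 38 in Ddx4, 30 in Stag3, 28 in Dazl, 25 in Brca2, 16 in Figla and 10 in Stra8, against a median of 7 over all promoters. A match describes letters only, and no binding was measured.

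Values are log2 signals centred to a common array median, and values below a floor of 6.99 (the 40th percentile) were set to the floor in fits and pair differences. Levels are comparable between arrays for 1 probe set, not between probe sets. On each array 59.7% to 60.4% of probe sets lay above the floor. Across probe sets, pairwise r was 0.962 to 0.995 among the E12.5 and female arrays, and 0.776 to 0.825 between an E14.5 male array and any of those 6. Centring added 0.47 and 0.43 to the KO and WT E14.5 male arrays, and between -0.34 and 0.09 to the others. In comparisons that rest on the E14.5 males, the state of the testis and an array-level difference cannot be told apart. Wnt4 itself lay at 8.32 in KO and 9.45 in WT females at E14.5, and at 8.59 in KO and 10.19 in WT females at E12.5. In males it was at 9.19 in KO and 9.42 in WT at E14.5, and at 8.34 in KO and 9.26 in WT at E12.5. On 2 arrays transcripts typical of the other sex stood above the matching array. The array labelled WT female E14.5 had the Y-linked gene Eif2s3y at 7.63, against 4.86 to 6.04 on the other female arrays. The Eif2s3y probe set may also read related sequences. The array labelled KO male E14.5 had Kitl, a ligand made by supporting cells, at 7.65 and Irx3, a pregranulosa gene, at 7.77, against 6.23 and 6.57 in the WT male of that stage. At E12.5 Kitl was higher still in males, at 9.57 in KO and 9.74 in WT, and Irx3 was at 6.93 in KO and 8.29 in WT males. The source of the values on the 2 arrays was not tested.

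Stra8 was high on both E14.5 female arrays and below the floor at E12.5. Its level was 9.39 in KO and 8.74 in WT females at E14.5, against 5.22 in KO and 5.62 in WT females at E12.5. In males it was 7.44 in KO and 5.70 in WT at E14.5, against 5.06 in KO and 5.05 in WT at E12.5. The KO male E14.5 array was thus the only male array on which Stra8 lay above the floor. Among all probe sets of its array, Stra8 stood at the 84.5th percentile in KO and the 73rd in WT females at E14.5, against the 15th in KO and the 19.8th in WT females at E12.5.

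Figla was above the floor on the E14.5 female arrays alone, at 7.77 in KO and 7.79 in WT, against 4.82 in both KO and WT females at E12.5. In males it lay at 5.75 in KO and 5.44 in WT at E14.5 and at 4.61 in KO and 4.80 in WT at E12.5. Figla and Stra8 passed the filter on dim probe sets through E14.5 arrays only, so that a rise was built into their inclusion. The other 5 probe sets were above the floor on all 8 arrays.

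Stag3 had 9.22 in KO and 9.17 in WT females at E14.5, against 7.87 in KO and 7.74 in WT females at E12.5. Male levels were 8.36 in KO and 8.19 in WT at E14.5 and at 7.86 in KO and 7.79 in WT at E12.5. The E14.5 females were highest, the E14.5 males next, and the 4 E12.5 arrays of both sexes lay between 7.74 and 7.87.

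Brca2 had 9.00 in KO and 9.01 in WT females at E14.5, against 8.22 in KO and 8.28 in WT females at E12.5. The males had 7.91 in KO and 7.65 in WT at E14.5 and at 8.25 in KO and 8.17 in WT at E12.5. Brca2 was the member with its lowest values in E14.5 males.

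Ddx4 had 9.67 in KO and 9.77 in WT females at E14.5, against 8.22 in KO and 8.09 in WT females at E12.5. In males it was at 8.83 in KO and 8.88 in WT at E14.5 and at 7.88 in KO and 7.97 in WT at E12.5. On this centred scale each E14.5 level lay above the E12.5 level of the same sex and genotype, as a description with no test.

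Dazl had, with its first probe set, 10.60 in KO and 10.18 in WT females at E14.5, against 9.56 in KO and 9.61 in WT females at E12.5. Testes gave 9.39 in KO and 9.13 in WT at E14.5 and at 9.04 in KO and 9.16 in WT at E12.5. The second probe set ran from 7.14 to 7.92 over the 8 arrays and was highest in the E14.5 males, at 7.84 in KO and 7.92 in WT. The Dazl probe sets thus ranked the sexes differently at E14.5.

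**Figure D1:**
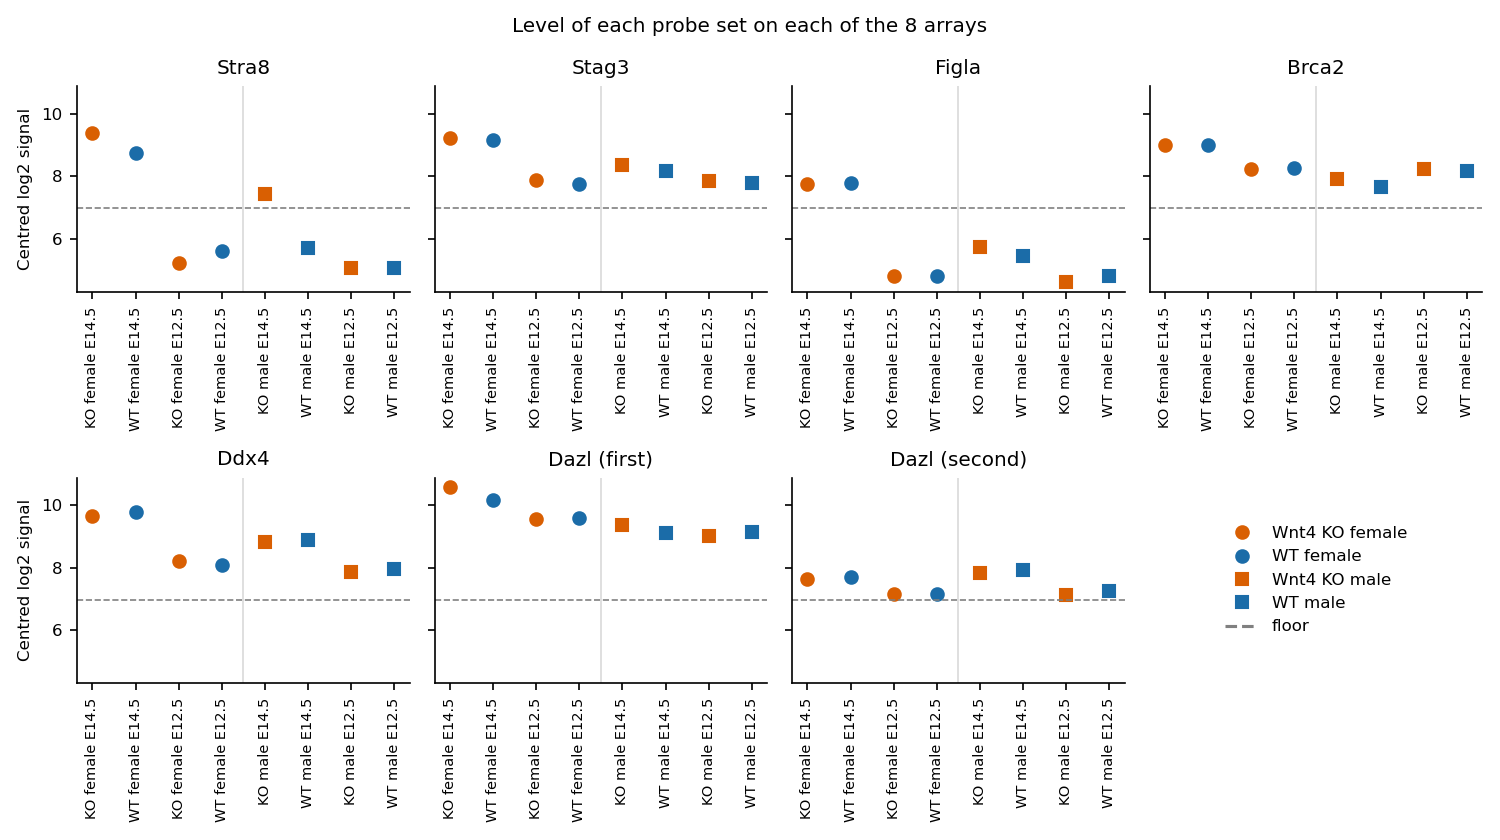
Centred log2 signal (vertical axis) of each of the 7 probe sets on each of the 8 arrays (horizontal axis), with circles for females, squares for males, orange for Wnt4 KO and blue for WT. Stra8 and Figla lie above the dashed floor of 6.99 on both E14.5 female arrays, and Stra8 also does on the KO male E14.5 array.

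The comparison of E14.5 with E12.5 ovaries asks which of these genes changed as the germ cells entered meiosis. All 6 genes rose in females, over both genotypes. Limma, fitted over 8452 probe sets, called higher at E14.5 the 5 probe sets that lay above the floor on all arrays, while 8.41% of all fitted probe sets were called higher and 14.6% lower, 23.1% in all. Stra8 and Figla were called too, but their inclusion fixed the direction, and nothing is read from their calls against that share. The rise was 1.57 ± 0.081 for Ddx4 (adjusted p = 0.00652), 1.39 ± 0.068 for Stag3 (0.00652) and 0.75 ± 0.074 for Brca2 (0.0105), where errors are SEs of the limma fit. Dazl rose by 0.81 ± 0.15 with the first probe set (limma adjusted p = 0.0259) and by 0.50 ± 0.046 with the second (0.0103). Stra8 rose by 2.08 ± 0.19 (limma adjusted p = 0.0102) and Figla by 0.80 ± 0.033 (0.00652), values that depend on the floor, since the E12.5 arrays were set to it. Without a floor the fit gave 3.65 for Stra8 and 2.96 for Figla.

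By size, Ddx4 ranked 11th and Stag3 22nd among the 8452 fitted stage differences in females, an order in which probe sets at the floor count with their bound. Both genotypes took part. Stra8 was at least 5.29-fold higher in KO and at least 3.38-fold higher in WT females, and Figla at least 1.72-fold and 1.75-fold. Ddx4 rose 2.73-fold in KO and 3.22-fold in WT females, and Stag3 2.54-fold and 2.68-fold. Brca2 rose 1.71-fold in KO and 1.65-fold in WT females. Dazl (first) differed 2.06-fold in KO and 1.49-fold in WT females. Among all fitted probe sets, 0.745% were at least 2-fold higher in the KO stage pair and 0.568% in the WT pair, counts that carry no test.

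The limma calls rest on 2 residual degrees of freedom. With 0 of 7 probe sets passing, they were all lost, as were all 1949 calls over the array, when any 1 array was left out, male arrays included, and when the 4 female arrays were fitted alone (adjusted p from 0.105 to 0.147). Without the filter on dim probe sets 1 of 7 passed, Figla, with adjusted p from 0.0524 to 0.143 for the others. A model of sex and stage without the WT female E14.5 and KO male E14.5 arrays was also run, an alternative chosen after seeing the data. It leaves 1 array for the E14.5 females and 1 for the E14.5 males, so nothing is read from its calls on the members. In whole gonads, more germ cells and more RNA per germ cell cannot be told apart as sources of the rises in females.

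**Figure D2:**
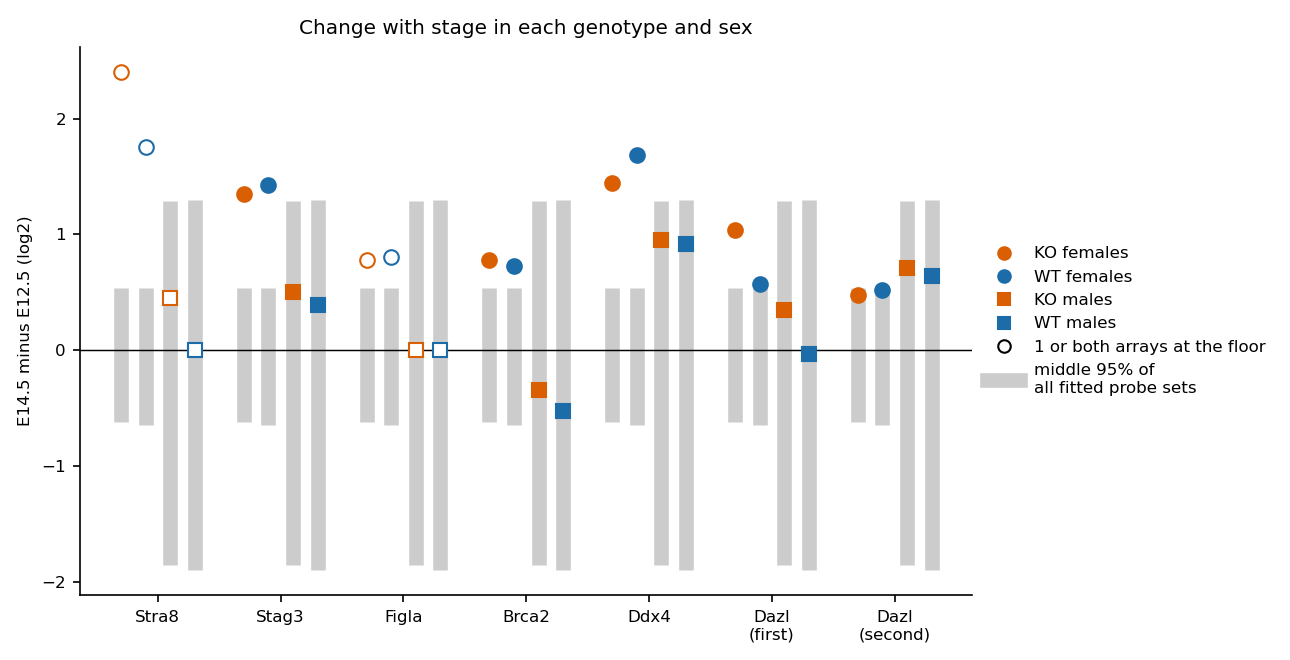
E14.5 minus E12.5 pair differences (log2, vertical axis) for each probe set (horizontal axis) in KO females, WT females, KO males and WT males. Grey bars span the middle 95% of all fitted probe sets in that pair, and open symbols have 1 or both arrays at the floor. In females the values of Stra8, Stag3, Figla, Brca2, Ddx4 and Dazl (first) lie above the grey bar in both genotypes, while in males no member leaves it.

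In males, Ddx4 was higher at E14.5 than at E12.5 by 0.93 ± 0.081 (limma adjusted p = 0.00036), Stag3 by 0.45 ± 0.068 (0.00255) and Dazl (second) by 0.67 ± 0.046 (0.000183). Brca2 fell by 0.44 ± 0.074 (0.00399). Stra8 (0.23 ± 0.19, adjusted p = 0.314), Figla (0, at the floor on all male arrays) and Dazl (first, 0.16 ± 0.15, 0.371) did not pass. Without a floor, where values below background enter, Stra8 had 1.52 (0.0143) and Figla 0.89 (0.000773) and both passed. Over all probe sets, 38% were called higher and 39.9% lower in this comparison, so the members' calls stand near the background. Signs also followed the centring, as without it the median of all probe sets lay at -0.69 and Stag3 at -0.33, Dazl at -0.62 (first) and -0.10 (second), and Ddx4 at 0.15 (adjusted p = 0.114). Brca2 was negative with and without centring.

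The difference between these stage effects, females minus males, was tested directly. It was positive and passed for Brca2, Stag3, Ddx4 and Dazl (first), while 33.8% of all fitted probe sets were called so, 35.2% were called negative and 69% passed in all. Stra8 and Figla passed as well, with a direction that the filter favoured for Stra8 and fixed for Figla. Stra8 had 1.85 ± 0.26 (limma adjusted p = 0.00307), Brca2 1.19 ± 0.10 (0.000765), Stag3 0.94 ± 0.096 (0.00111), Figla 0.80 ± 0.046 (0.000401), Dazl (first) 0.65 ± 0.21 (0.0427) and Ddx4 0.63 ± 0.11 (0.00648). Dazl (second) had -0.18 ± 0.066 (0.0644). Without a floor the difference was 2.13 for Stra8 (0.0171) and 2.07 for Figla (0.00017). Whichever array was left out, female or male, fewer members passed, as did fewer of all fitted probe sets.

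**Figure D3:**
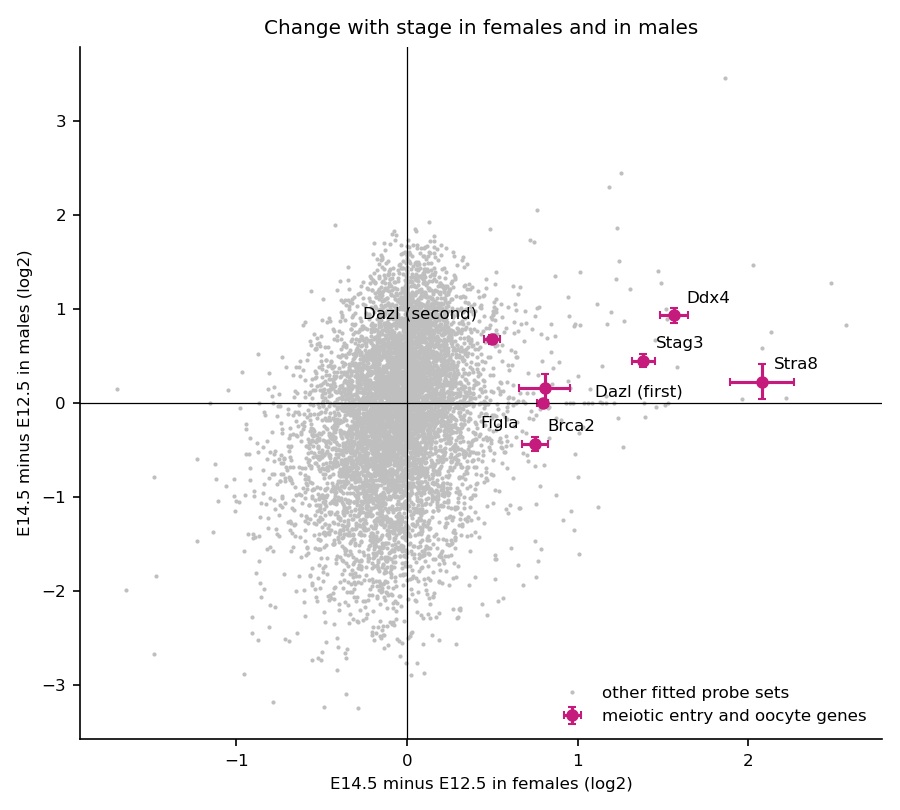
Fitted change with stage in females (horizontal axis, log2) and in males (vertical axis, log2), with 1 grey point per fitted probe set and members in pink with the SE of the limma fit. All members lie right of 0, with Stra8, Ddx4 and Stag3 farthest right, and Brca2 is the member below 0 in males.

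Ovary and testis were compared at each stage. At E12.5, 0 of 7 probe sets differed between females and males by limma, with Ddx4 (0.23 ± 0.081, adjusted p = 0.111) and Dazl (first, 0.48 ± 0.15, 0.0867) the 2 at an unadjusted p under 0.05, while 16.3% of all fitted probe sets passed and 36.5% had an unadjusted p under 0.05. In the limma model with genotype within stage, Dazl (first) passed (adjusted p = 0.0278), as did 829 of the 8452 fitted probe sets. Dazl (first) was higher in females in both genotypes, by 0.52 in KO and 0.45 in WT.

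At E14.5, females were higher for Brca2, Stag3, Ddx4 and Dazl (first), against 38% of all fitted probe sets, and also for Stra8 and Figla, where the filter bears on the direction as above. The difference was 1.85 ± 0.19 for Stra8 (limma adjusted p = 0.000631), 1.23 ± 0.074 for Brca2 (0.000139), 1.13 ± 0.15 for Dazl with the first probe set (0.00159) and 0.91 ± 0.068 for Stag3 (0.000238). Ddx4 had 0.87 ± 0.081 (0.000482) and Figla 0.80 ± 0.033 (7.56e-05), with Figla at the floor in males and 2.19 without a floor. Dazl with the second probe set was lower in females, at -0.21 ± 0.046 (0.0106, against 39.5% of all fitted probe sets called lower), and higher, at 0.18, without centring. Stra8 was 3.86-fold higher in KO females than in KO males and at least 3.38-fold higher in WT females than in WT males.

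Loss of Wnt4 was compared with WT to ask whether these genes depend on it. No member passed in either sex. Wnt4 itself, the disrupted gene, had -1.37 ± 0.20 in females and did not pass either. A member that does not pass is therefore not shown to be independent of Wnt4. In females over both stages, Stra8 had a KO minus WT difference of 0.32 ± 0.19 (limma adjusted p = 0.5), Dazl (first) 0.18 ± 0.15 (0.624) and Stag3 0.089 ± 0.068 (0.599). Ddx4 had 0.013 ± 0.081 (1), Figla -0.013 ± 0.033 (0.93), Dazl (second) -0.030 ± 0.046 (0.815) and Brca2 -0.037 ± 0.074 (0.885). Over all fitted probe sets 0% passed and 11.4% had an unadjusted p under 0.05, among which there was no member.

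At E14.5 alone, Stra8 was 1.57-fold higher in KO than in WT females, above 99.78% of the fitted probe sets of that pair, and Dazl (first) 1.33-fold higher, above 99.02%. The WT array of this pair is the one on which Eif2s3y and the steroidogenic gene Cyp17a1 (8.13 in KO, 10.36 in WT) stood high and Xist, the RNA of the inactive X chromosome, low (8.13 in KO, 7.10 in WT). The part of these values in the Stra8 difference was not tested. Stag3, Figla, Brca2, Ddx4 and Dazl (second) differed by between -0.11 and 0.05 in the same pair. At E12.5 the members that lay above the floor differed by between -0.06 and 0.13 in females.

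In males, KO minus WT was 0.23 ± 0.19 for Stra8 (limma adjusted p = 0.814), 0.17 ± 0.074 for Brca2 (0.794) and 0.12 ± 0.068 for Stag3 (0.794), and the other members lay between -0.11 and 0.07 (adjusted p of 0.794 or more). Here too 0% of all fitted probe sets passed, with 4.79% at an unadjusted p under 0.05 and no member among them. Stra8 was at least 1.37-fold higher in KO than in WT males at E14.5, above 98.90% of the fitted probe sets. On the same arrays Irx3 lay at 7.77 in KO and 6.57 in WT, Eif2s3y at 6.91 in KO and 7.54 in WT and Sycp1, a synaptonemal complex protein gene, at 6.28 in KO and 5.44 in WT. The Sycp1 values lay below the floor. Whether these values and the Stra8 level share a source was not tested. Brca2 and Dazl (first) differed by 0.26 each and Stag3 by 0.18 in that pair, while Ddx4 differed by -0.05. The KO effect did not pass a test of a difference between the sexes for any member, with adjusted p from 0.462 to 0.907, while 0% of all fitted probe sets passed and 11.5% had an unadjusted p under 0.05.

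**Figure D4:**
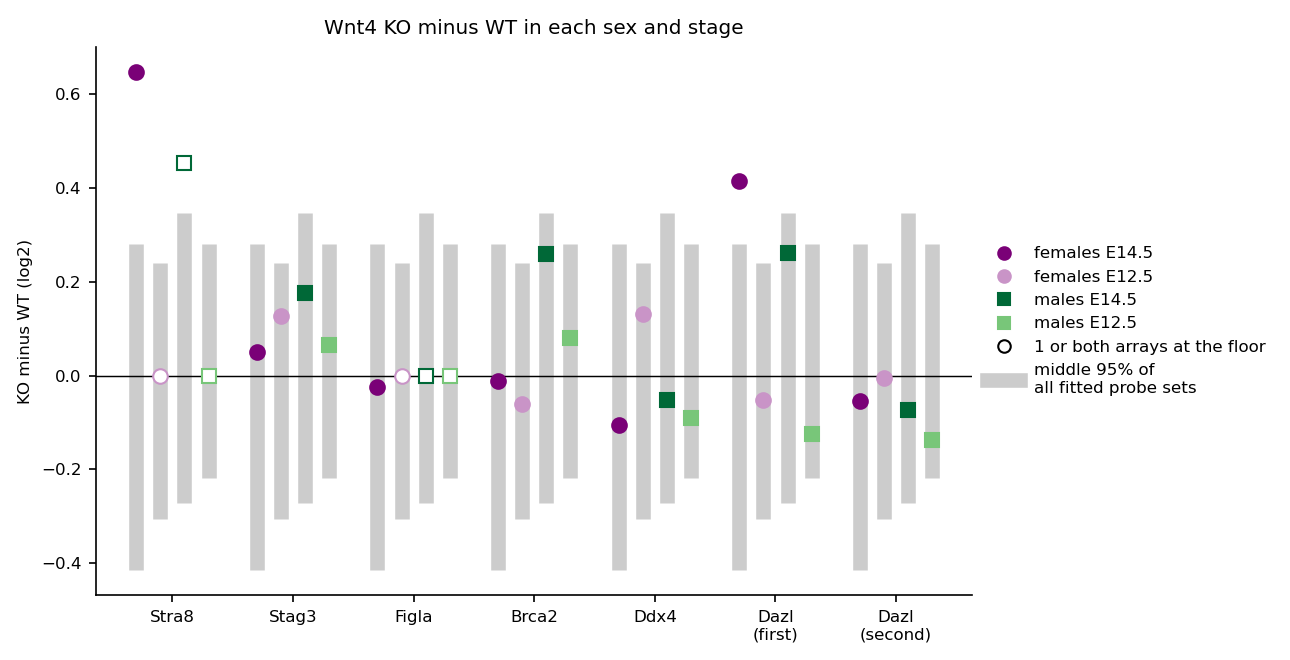
Wnt4 KO minus WT pair differences (log2, vertical axis) of each probe set (horizontal axis) for each sex and stage, with grey bars for the middle 95% of all fitted probe sets in the pair. Stra8 in both sexes and Dazl (first) in females lie above the bar at E14.5, and open symbols have 1 or both arrays at the floor.

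Related genes were taken from lists grouped by function. Of 29 meiosis genes 8 were on the array and 3 were fitted, and these 3 were called higher with stage in females. Each passed the filter through E14.5 arrays only, so the direction was fixed by it, and their values depend on the floor, since their E12.5 levels lay below it. Syce2, of the synaptonemal complex, rose by 1.17 ± 0.069 (limma adjusted p = 0.00786), Sycp1 by 0.37 ± 0.033 (0.0102) and the mismatch repair homologue Msh5 by 0.26 ± 0.063 (0.0467). Sycp1 lay at 7.39 in KO and 7.32 in WT females at E14.5, against 3.19 in KO and 3.44 in WT females at E12.5. Dmc1, the meiotic recombinase, was not fitted and lay at 7.08 in KO and 6.75 in WT females at E14.5, against 5.18 in KO and 4.98 in WT females at E12.5. The other 4 genes not fitted stayed below the floor on all arrays. Psmc3ip, a partner of Dmc1, was at 6.41 in KO and 6.43 in WT females at E14.5, against 6.71 in KO and 6.75 in WT females at E12.5. Hspa2, a chaperone of meiotic cells, was at 6.57 in KO and 6.30 in WT at E14.5, against 6.29 in KO and 6.28 in WT at E12.5. Ccna1, a meiotic cyclin, was at 5.13 in KO and 5.21 in WT at E14.5, against 4.77 in KO and 4.80 in WT at E12.5. The probe set of Sycp3 did not exceed 3.42 on any array.

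Of 20 oocyte genes 11 were on the array and 6 fitted, and in females 0 rose and 2 fell with stage (median 0.01, against -0.02 over all fitted probe sets). The 2 were Kit, the receptor of Kitl, which fell by 1.23 ± 0.11 (limma adjusted p = 0.0103), and the transcription factor gene Tfap2c, which fell by 0.63 ± 0.064 (0.0107). Gdf9, a growth factor of the oocyte, had 0.23 ± 0.067 (0.0665) and Foxo3, which keeps oocytes dormant after birth, -0.06 ± 0.10 (0.762). The egg coat genes Zp1 and Zp3, which Figla is known to drive, had highest values of 6.84 and 6.89 over the 8 arrays, below the floor, and the oocyte transcription factor gene Nobox had 5.78. Zp2, a further egg coat gene, was fitted and lay at 7.21 in KO and 7.16 in WT females at E14.5, against 7.18 in KO and 7.04 in WT females at E12.5. Its probe set may read related sequences, and in males it ran from 6.82 to 7.30, so its values overlapped between stages and sexes.

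Of 12 fitted general germ cell genes 1 rose and 3 fell with stage in females (median -0.22). Dppa3, a germ cell and egg factor, rose by 0.68 ± 0.16 (limma adjusted p = 0.042), while Kit, the pluripotency factor Nanog (-1.11 ± 0.13, 0.0124) and Sox2 (-0.76 ± 0.095, 0.013) fell. The summed level of this list, in log2, was 12.46 in KO and 12.87 in WT females at E14.5, against 12.80 in KO and 12.58 in WT females at E12.5. It was thus lower at E14.5 in KO and higher at E14.5 in WT females. Male sums were 12.41 in KO and 12.67 in WT at E14.5 and 12.70 in KO and 12.75 in WT at E12.5.

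Among 12 fitted recombination partners of Brca2, 1 rose and 2 fell with stage in females (median 0.07): Mre11a, which trims broken DNA ends, rose by 0.41 ± 0.073 (limma adjusted p = 0.0244), and Rpa1 (-0.37 ± 0.061, 0.0208) and Rad52 (-0.36 ± 0.076, 0.0342) fell. Of 9 fitted cohesin genes 0 rose and 2 fell (median -0.12), namely Rad21 (-0.31 ± 0.074, 0.0461), the cohesin subunit of dividing cells, and Pttg1 (-0.61 ± 0.079, 0.0141), the securin, while Stag2, the relative of Stag3 in dividing cells, had 0.05 ± 0.071 (0.659).

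Of 12 fitted genes listed for the retinoic acid control of meiosis, which include Bmp4 and Dmrt1, 1 rose and 3 fell in females (median -0.07). Rarg, a receptor, rose by 0.33 ± 0.062 (limma adjusted p = 0.0273). The falls were of Aldh1a2, which makes retinoic acid (-0.79 ± 0.12, 0.0168), and of the binding proteins Crabp1 (-1.06 ± 0.097, 0.0102) and Crabp2 (-0.57 ± 0.13, 0.0382). Aldh1a1, another enzyme of that step and the highest by mean level, had 0.93 ± 0.42 (0.17). In the KO comparisons 0 genes of these lists passed in either sex. Lists of other gonad cells, given by their summed log2 level, were compared between the stages in females. Sertoli genes were at 12.29 in KO and 12.73 in WT at E14.5 and 12.43 in KO and 12.33 in WT at E12.5, against 13.11 to 13.54 in males, and Leydig genes at 12.03 in KO and 12.82 in WT at E14.5 and 11.98 in KO and 11.81 in WT at E12.5. Pregranulosa genes were at 11.43 in KO and 12.17 in WT females at E14.5 and 11.37 in KO and 12.47 in WT females at E12.5. Macrophage genes were at 11.31 in KO and 11.16 in WT females at E14.5, against 11.02 in both KO and WT at E12.5. By this sum, macrophage genes were higher with stage in both genotypes, as the members were. The Leydig sum differed mainly in the WT pair, and 0 of the 10 fitted Leydig genes were called with stage in females. Of the 9 fitted macrophage genes 3 were called higher, C1qa (0.67 ± 0.094, limma adjusted p = 0.0157), Tyrobp (0.41 ± 0.079, 0.0281) and Cx3cr1 (0.28 ± 0.065, 0.0427), and 1 lower, Adgre1 (-0.16 ± 0.037, 0.0404). Endothelial genes were at 11.37 in KO and 11.19 in WT at E14.5, against 11.43 in KO and 11.36 in WT at E12.5. Genes of the mesonephros and ducts were at 11.33 in KO and 11.44 in WT at E14.5, against 11.53 in KO and 11.80 in WT at E12.5. Their part in the values of the members was not tested.

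**Figure D5:**
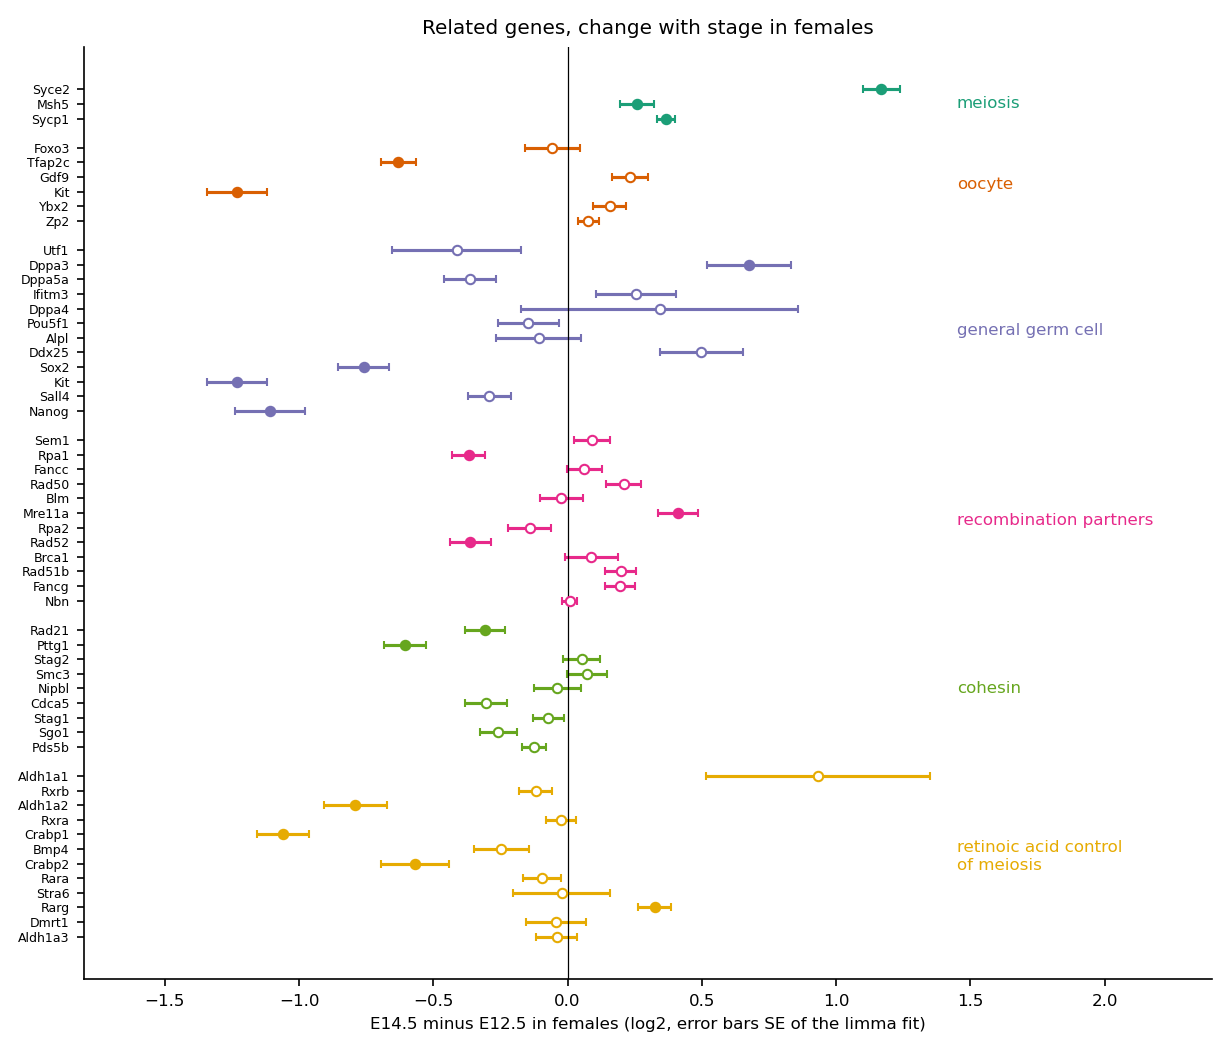
E14.5 minus E12.5 in females (horizontal axis, log2, with the SE of the limma fit) for the fitted genes of 6 lists, ordered by mean level within a list. Filled symbols passed at an adjusted p under 0.05. The 3 meiosis genes lie right of 0 and filled, and the other lists hold filled symbols on both sides or on the left.

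Genes with the most similar profile over the 8 arrays were ranked by Pearson's r among 6337 genes, as a description over points that share arrays. The r values use centred levels with no floor, so levels below it enter, as they do for Stra8 and Figla. For Stra8 they were Xlr4a (r = 0.995) and the MHC class I genes H2-D1 (0.991) and H2-K1 (0.990), whose probe sets may also read related family members and which were also higher in the KO than in the WT male at E14.5. Xlr4a, of the X-linked lymphocyte-regulated family, had 8.71 in KO and 8.04 in WT females at E14.5. It had 6.55 in KO and 5.17 in WT males at E14.5. Only on those female arrays did it lie above the floor. For Ddx4 they were Adad1 (0.995), a germ cell RNA-binding protein gene, Inca1 (0.980) and Rexo5 (0.978). For Figla and Stag3 alike, Arpc5l (0.990 and 0.988) and Tktl1 (0.986 and 0.986) led, and for Brca2 they were Caprin2, Atp6v1h and Mre11a (0.994 each). For Dazl they were Mxd3 (0.980), Fmr1nb (0.979) and Htra1 (0.975). With both E14.5 male arrays left out, Mlf1 led for Stra8 (0.999), Inca1 for Figla (0.9998), Lum for Stag3, Arhgap9 for Brca2 and Rpl35a for Ddx4 (0.998 each), and Vax1 for Dazl (0.997). Arhgap9 changed by only 0.12 with stage in females, so a high r here does not mean a large change. Among the members, r ran from 0.898 to 0.995 over those 6 arrays and from 0.579 to 0.993 over all 8, with the lowest value for Brca2 and Ddx4.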

How the data were processed

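Gonads of Wnt4 KO and WT mouse embryos were profiled on 8 single-channel Affymetrix arrays, 1 per group. The deposited values are log2 probe set summaries that the authors made with MAS5, per the submitters' processing notes. Its version and scaling were not given in the sources used here. In addition, the deposited values of the KO male at E12.5 held, beside log2 values, 14 other cells with spreadsheet dates, which were set to missing and touch no member. Arrays were shifted to a common median. Values below the 40th percentile (6.99) were set to that floor. Probe sets above it on at least 2 arrays were kept, without 66 controls, which left 8452. All were fitted in limma 3.58.1 (R 4.3.3) with the model sex by genotype plus sex by stage, moderated variances following intensity, and two-sided p-values adjusted by Benjamini-Hochberg across every fitted probe set, at 0.05. The fit had 2 residual and 2.77 prior degrees of freedom, so the error is the part of the KO effect that differs between stages, and no group's own spread was measured. The fit was also run on simulated data with independent noise, no floor and no KO effect. Such data do not show how the fit performs with values at the floor, or where the KO effect differs between stages.

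Gene names follow the platform annotation. A gene with several probe sets was represented by the one with the highest mean, except that both Dazl probe sets are given. Genes named beside the members were, per list, up to 4 with the highest mean level and any that passed a test, and the 3 most similar profiles per member. Nobox, the Zp genes and the meiosis genes not fitted were chosen after their values were seen. Members and lists were chosen with earlier results of these data known. Alternatives changed the floor, filter, centring, normalization, trend, model and arrays. Array number limits the precision of every value.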

Additional observations from a re-analysis of the deposited data

Results flagged for a closer look

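The change with stage differed between females and males, by the interaction term of the limma fit, for 6 of the 7 probe sets. The difference, females minus males on the log2 scale, was 1.85 for Stra8, 1.19 for Brca2, 0.94 for Stag3, 0.80 for Figla (2.07 without a floor), 0.65 for Dazl (first) and 0.63 for Ddx4. As 69% of all fitted probe sets passed this test in either direction, and as both E14.5 male arrays stood apart from the other 6, the calls are to be read against that share. For Stra8 and Figla, which passed the filter on dim probe sets through E14.5 arrays only, nothing is read from the calls.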

How the results depend on the processing

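No group has a replicate, so leaving out an array leaves 1 residual degree of freedom. The count of members called in the female stage comparison, 7 of 7, then came to 0 without any 1 array, to 0 with the arrays of the same sex alone and to 1 without the filter on dim probe sets, where 40 probe sets passed in all instead of 1949. Over all probe sets this comparison had 5156 calls without centring and, in an alternative chosen after seeing the data, 708 without the WT female E14.5 and KO male E14.5 arrays. The E12.5 sex comparison, with 1377 calls, had 31 without the filter, 2873 without centring, 829 with genotype within stage and 220 without those 2 arrays. Leaving out 1 array gave between 3 and 5 calls among the members for the difference in stage effect between the sexes (6 with all arrays), between 3 and 4 for the male stage comparison (4) and between 5 and 7 for the E14.5 sex comparison (7). The E12.5 sex comparison had 1 call in place of 0 without centring and 1 with genotype within stage. No KO comparison gave a call under any setting run.

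Some signs turned. Without centring, KO minus WT in females was 0.015 for Figla, 0.0047 for Brca2 and 0.011 for Dazl (second), and 0.017 for Brca2 after quantile normalization. The KO difference between the sexes was -0.74 for Stra8 without a floor and -0.55 with a lower one, 0.038 for Stag3 and 0.015 for Figla without centring, and 0.0039 for Stag3 after quantile normalization. Without centring, E14.5 minus E12.5 in males was -0.33 for Stag3, -0.62 for Dazl (first) and -0.10 for Dazl (second). The stage by sex difference of Dazl (second) was then 0.35 and its E14.5 sex difference 0.18, and that of Brca2 at E12.5 -0.098. Leaving out an array gave ranges that span 0: in KO minus WT from -0.052 to 0.41 (Dazl, first) and from -0.11 to 0.13 (Ddx4) in females and from -0.12 to 0.26 (Dazl, first) in males. For the KO difference between the sexes they ran from -0.23 to 0.42 (Stra8), -0.088 to 0.022 (Stag3), -0.12 to 0.35 (Dazl, first) and -0.035 to 0.20 (Ddx4). They also spanned 0 for Dazl (first) with stage in males, from -0.034 to 0.35, and between the sexes at E12.5 for Stag3, from -0.077 to 0.034, and Brca2, from -0.048 to 0.13. With an array left out, the KO and stage effects in its sex rest on the pair that remains. The ranges for KO minus WT thus run between the pair differences at E12.5 and at E14.5. That for Dazl (first) with stage in males runs between the WT and the KO pair. For the signs that turned with centring, floor or normalization, the cause was not tested. No paired analysis was possible because each group holds 1 array.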
